A study of Mus musculus with 4 samples.

Results

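Epithelial-mesenchymal transition (EMT) is the change by which epithelial cells loosen their contacts and take on a migratory, fibroblast-like form. Some of its best known genes were followed here in mouse ovarian cancer cells with and without knockdown of USP9X, a deubiquitinating enzyme. They were the transcription factors Snai1, Snai2, Zeb1, Zeb2, Twist1 and Twist2, the cadherins Cdh1, Cdh2 and Cdh11, and the intermediate filament gene Vim. They were taken by symbol and made up 10 of the 22063 genes in the deposited table.

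SNAIL and ZEB proteins are zinc finger repressors that bind E-box sequences in the promoters of epithelial genes, and TWIST proteins are basic helix-loop-helix factors that pair with E proteins on related sites. A switch from E-cadherin (Cdh1), the cadherin of epithelial adherens junctions, to N-cadherin (Cdh2) is a textbook mark of the transition, together with a rise of vimentin. The normal ovarian surface epithelium is unusual among epithelia in that it carries N-cadherin and vimentin beside its keratins.

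ID8 is a line of mouse ovarian surface epithelial origin that forms ovarian tumors in mice. Total RNA was sequenced from ID8 cells with a control shRNA (shCtrl, genotype given as WT, 2 libraries) and from ID8 cells with shRNA against USP9X (shUSP9X, genotype given as a knockdown, 2 libraries). The study's methods describe lentiviral shRNA vectors with puromycin resistance. Whether TGF-β1 was given and the oxygen in culture are not stated for these cells. The labels leave unclear whether the shUSP9X libraries came from different shRNAs, different clones or repeats of the same cells, so their SD can stand for any of these. Nothing states that replicates were separate cultures, so p-values measure only the spread between these libraries.

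Library totals were 17232006 and 15611363 estimated counts for shCtrl, with 19978889 and 17021261 for shUSP9X. Levels are given as CPM, counts scaled to a common library size by edgeR's TMM method, and differences as the log2 fold change of shUSP9X against shCtrl with its standard error (SE). The test was edgeR's quasi-likelihood test, with p-values adjusted by the Benjamini-Hochberg method across 11448 genes, those left after removal of scarcely counted ones. A gene was called at an adjusted p under 0.05. In bulk RNA, fewer cells with a transcript and less of it in each cell cannot be told apart.

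The target of the shRNA was read first. Usp9x had counts of 5169 and 4453 in shCtrl and of 390 and 346 in shUSP9X, or 289.8 ± 11.6 and 20.13 ± 0.57 CPM (SD, n = 2 each). Its log2 fold change was -3.85 (SE 0.06, edgeR adjusted p = 4.7e-26), so each library followed its label. With the offset for transcript composition introduced below it was -2.32.

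Of the 10 EMT genes, 9 passed the filter, 5 were lower in shUSP9X, 2 were higher and 2 were not called. Over all genes tested, 33.6% were lower and 33.8% were higher by the same rule, and the median absolute log2 fold change of the called genes was 0.52. With so broad a difference between the groups, a call alone says little about a gene, and the sizes below are the more useful reading. Zeb1, Zeb2, Snai2, Cdh2 and Cdh11 were lower, and Snai1 and Vim were higher. At the cutoff named in the study's methods (more than 1.5-fold, with p under 0.05 before adjustment), 3 of the EMT genes were lower and 1 was higher, beside 18.7% and 10.8% of all genes.

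**Figure D1:**
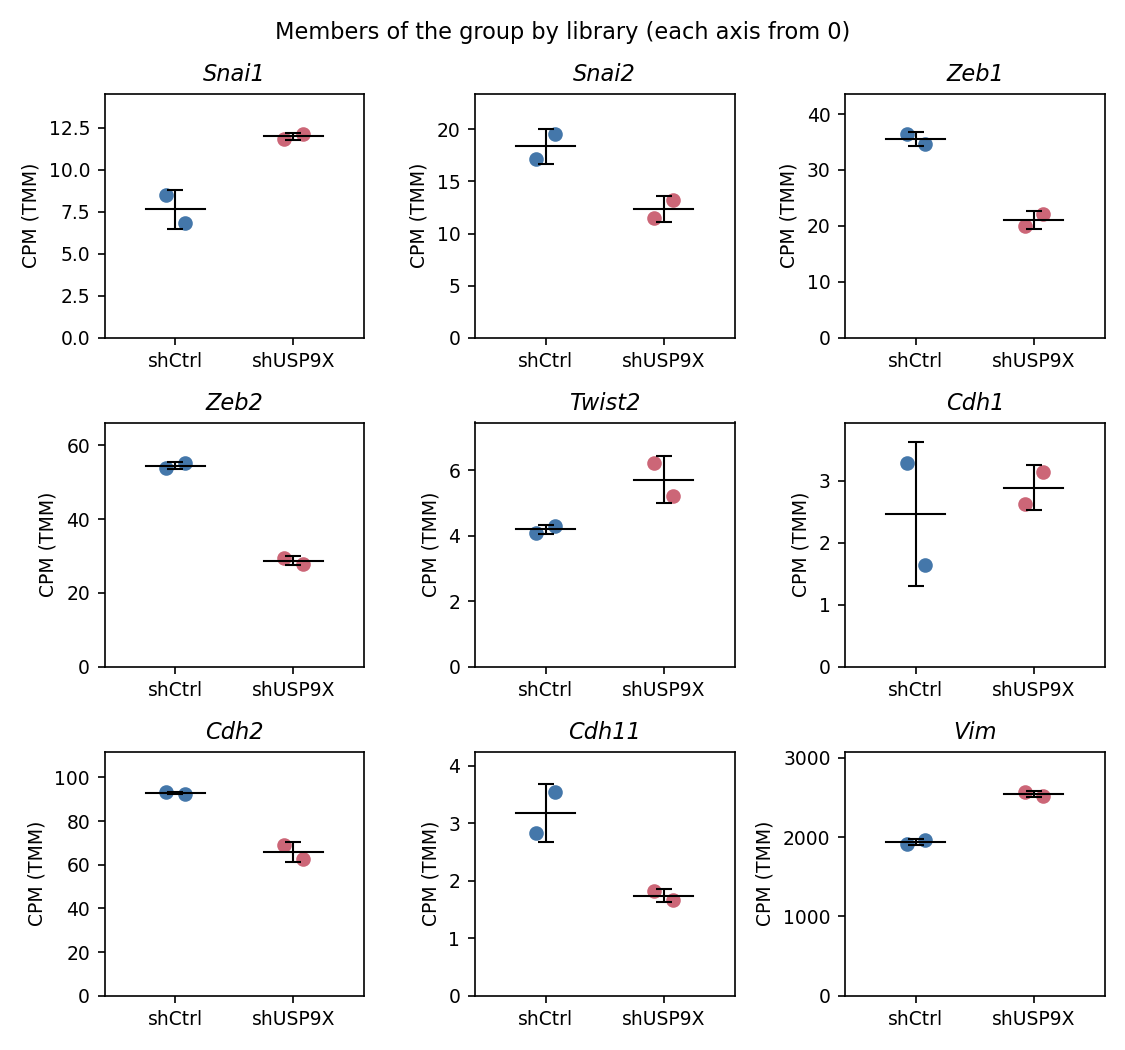
CPM after TMM scaling (vertical axes, each from 0) of the 9 EMT genes that passed the filter, in 2 shCtrl (blue) and 2 shUSP9X (red) libraries. Points are libraries, long bars are group means and error bars are the SD (n = 2). The groups overlap for Cdh1. The share of all tested genes without overlap was not computed, so separation of the others cannot be read as particular to them.

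SNAIL and ZEB zinc fingers bind a short site, an E-box. It has the letters CACCTG or, when read along the opposite strand, CAGGTG. The set of RefSeq starts used here (GRCm38.p6) had an entry for 5 of the 10 genes, and the others were not searched. The 250 bases before the start were searched on both strands, and 17.2% of the 32851 windows of this length in the set held at least 1 match. The windows of a gene that was higher and of one that was lower are shown to compare their sequence, each upstream of any annotated exon of its gene. The match is in capitals.
Snai1 (chr2:167537945-167538194, + strand): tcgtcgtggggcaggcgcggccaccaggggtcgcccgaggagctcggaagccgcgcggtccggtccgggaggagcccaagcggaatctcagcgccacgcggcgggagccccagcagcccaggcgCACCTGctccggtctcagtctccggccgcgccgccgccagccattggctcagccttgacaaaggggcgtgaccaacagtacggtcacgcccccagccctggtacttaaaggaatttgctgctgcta
Zeb2 (chr2:45117443-45117692, - strand): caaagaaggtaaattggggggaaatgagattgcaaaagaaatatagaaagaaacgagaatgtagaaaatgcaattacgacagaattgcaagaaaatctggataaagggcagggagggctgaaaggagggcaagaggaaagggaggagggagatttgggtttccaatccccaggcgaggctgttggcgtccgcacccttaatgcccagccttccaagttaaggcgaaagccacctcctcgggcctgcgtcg
The Snai1 window held 1 match, which began 126 bases before the start, and its GC content was 70%. None was found in the 4 Zeb2 windows, of which the most upstream is printed and had a GC content of 49.6%, nor in those of Twist1, Twist2 and Vim. The bases that follow the printed Zeb2 window were not found in any GENCODE transcript of Zeb2, unlike those after the other windows of these genes. A match describes these letters only.

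Snai1 encodes Snail, the founding repressor of Cdh1 in EMT. It lies at chr2:167538195-167542814 (+ strand, GRCm38, ENSMUSG00000042821) and had counts of 147 and 108 in shCtrl and of 234 and 204 in shUSP9X. Both shUSP9X libraries were above both shCtrl libraries, at 11.97 ± 0.191 CPM against 7.654 ± 1.16 CPM (SD, n = 2 each). The log2 fold change was 0.64 (SE 0.15, 95% interval 0.33 to 0.95, edgeR adjusted p = 5.4e-04), a 1.56-fold higher level. Snai1 kept its call under each of the 19 alternative settings, at log2 fold changes of 0.39 to 0.81.

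Snai2 encodes Slug, the second SNAIL repressor, which is tied to migration of neural crest and basal epithelial cells. The gene (chr16:14705852-14709385, + strand, ENSMUSG00000022676) went the other way. It had counts of 298 and 309 in shCtrl and of 227 and 223 in shUSP9X, and the groups did not overlap at 18.36 ± 1.67 CPM and 12.36 ± 1.24 CPM (SD, n = 2 each). On the log2 scale the fold change was -0.57 (SE 0.12, edgeR adjusted p = 2.2e-04). This call was lost under every correction for transcript composition described below. The third paralog, Snai3, had counts of 0, 3, 0 and 1 over the 4 libraries and was not tested.

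Read per length in deposited FPKM, with no correction for transcript composition, the SNAIL pair exchanged places. In shCtrl, Snai2 stood at 8.557 and 9.794 FPKM and Snai1 at 5.263 and 4.268 FPKM, so that Snai2 was the higher in both libraries. In shUSP9X, Snai2 stood at 5.622 and 6.483 FPKM and Snai1 at 7.225 and 7.394 FPKM, so that Snai1 was the higher in both. Both genes have a single annotated transcript, and in the deposited table the ratio of count to FPKM implied the same length for a gene in all 4 libraries, 1621 bases for Snai1 and 2021 bases for Snai2. The exchange rests on the uncorrected values. In shCtrl, Snai2 was above Snai1 by 0.95 on the log2 scale of mean FPKM, and with the offset introduced below the log2 fold changes of the genes differed by 0.65, too little to change their order.

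Zeb1 and Zeb2 encode large repressors with a zinc finger cluster at either end, which the miR-200 family is known to hold down in epithelial cells. Zeb1 (chr18:5591860-5775467, + strand, ENSMUSG00000024238) had counts of 631 and 547 in shCtrl and of 394 and 373 in shUSP9X. Every shUSP9X library was below every shCtrl library, at 21.04 ± 1.56 CPM against 35.49 ± 1.27 CPM (SD, n = 2 each). The fitted log2 fold change was -0.76 (SE 0.09, edgeR adjusted p = 7.7e-08), a 1.69-fold lower level. Under the 19 alternatives it stayed lower and called, between -0.83 and -0.34.

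Zeb2 (chr2:44983632-45117395, - strand, ENSMUSG00000026872) had the largest fold of the called EMT genes. Its counts were 933 and 872 in shCtrl and 584 and 471 in shUSP9X. The groups lay far apart, at 54.48 ± 0.951 CPM and 28.75 ± 1.12 CPM (SD, n = 2 each). The log2 fold change was -0.92 (SE 0.08, edgeR adjusted p = 4.1e-11), a 1.89-fold lower level. Its direction depended on how trends with transcript composition were removed, as described below. Zeb2 also shares 653 exonic bases with the antisense gene Zeb2os, and the library kit was not described as stranded, so reads within that stretch cannot be told apart.

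The TWIST genes differed from each other in level. Twist1 (chr12:33957671-33959829, + strand, ENSMUSG00000035799) had a count of 0 in all 4 libraries, which allows up to 3 counts, or 0.152 to 0.19 CPM, in a library. Twist2 (chr1:91801461-91848028, + strand, ENSMUSG00000007805) had counts of 71 and 68 in shCtrl and of 123 and 88 in shUSP9X. Its groups did not overlap, at 4.197 ± 0.146 CPM and 5.723 ± 0.707 CPM (SD, n = 2 each), but the log2 fold change of 0.45 (SE 0.21, edgeR adjusted p = 0.0590) was not called. It was called under 4 of the 19 alternatives, and the adjusted p ranged from 0.0411 to 0.504. The antisense gene Gm29100 covers 1477 of its exonic bases.

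Cdh1, the E-cadherin gene and the classic target of the SNAIL and ZEB repressors, was barely present. It lies at chr8:106603351-106670246 (+ strand, ENSMUSG00000000303) and had counts of 57 and 26 in shCtrl and of 52 and 53 in shUSP9X. The shCtrl libraries lay on either side of the shUSP9X libraries, at 2.466 ± 1.16 CPM and 2.888 ± 0.364 CPM (SD, n = 2 each). Its log2 fold change was 0.21 (SE 0.32, 95% interval -0.44 to 0.86, edgeR adjusted p = 0.573). No change was detectable at this depth, and without shCtrl replicate 2, its lowest library, the value was -0.19.

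Cdh2, the N-cadherin gene (chr18:16588877-16809246, - strand, ENSMUSG00000024304), was far more abundant. It had counts of 1617 and 1464 in shCtrl and of 1364 and 1054 in shUSP9X. Both shUSP9X libraries were lower, at 65.78 ± 4.56 CPM against 92.92 ± 0.466 CPM (SD, n = 2 each). The log2 fold change was -0.50 (SE 0.06, edgeR adjusted p = 3.5e-08), a 1.41-fold lower level.

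Cdh11, the cadherin of osteoblasts and fibroblasts (chr8:102632095-102785642, - strand, ENSMUSG00000031673), was scarce like Cdh1. It had counts of 49 and 56 in shCtrl and of 36 and 28 in shUSP9X, or 3.184 ± 0.506 CPM and 1.742 ± 0.113 CPM without overlap (SD, n = 2 each). On the log2 scale the fold change was -0.86 (SE 0.31, 95% interval -1.49 to -0.23, edgeR adjusted p = 0.0153). The call rested on few counts. It was lost without shCtrl replicate 2 (-0.69, edgeR adjusted p = 0.111), without shUSP9X replicate 2 (-0.80, edgeR adjusted p = 0.0706) and with DESeq2 (adjusted p = 0.0739).

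Vim encodes vimentin, the intermediate filament of mesenchymal cells, and was the most abundant of the 10 genes by a wide margin. The gene (chr2:13573927-13582826, + strand, ENSMUSG00000026728) had counts of 33051 and 31001 in shCtrl and of 50699 and 42408 in shUSP9X. Both shUSP9X libraries were higher, at 2541 ± 33.9 CPM against 1933 ± 38.7 CPM (SD, n = 2 each). The fitted log2 fold change was 0.39 (SE 0.03, edgeR adjusted p = 3.0e-12), a 1.31-fold higher level. It was called higher under all 19 alternatives, at 0.16 to 0.43. Among the mesenchymal members, vimentin and Snai1 were thus higher in shUSP9X while both ZEB genes, Snai2 and N-cadherin were lower, before any correction for transcript composition.

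Levels per length in FPKM gave the order of the genes. In shCtrl it ran from Vim (893 ± 21.8 FPKM, SD, n = 2) through Cdh2, Zeb2, Snai2, Zeb1, Snai1 and Twist2 to Cdh11 and Cdh1, whose ranges of 0.504 to 0.635 and 0.376 to 0.747 FPKM overlapped. Vim was also first in shUSP9X (1150 ± 15.5 FPKM, SD, n = 2), followed by Cdh2, Snai1, Snai2, Zeb2, Twist2, Zeb1, Cdh1 and Cdh11. There, Snai2 and Zeb2 overlapped at 5.622 to 6.483 and 5.306 to 5.941 FPKM, and so did Twist2 and Zeb1 at 3.89 to 4.632 and 3.806 to 3.912 FPKM. P-cadherin (Cdh3), the placental cadherin of basal epithelia, stood next to N-cadherin, at 12.36 FPKM in shCtrl and 11.35 FPKM in shUSP9X. The cells thus carried N- and P-cadherin transcripts well above those of E-cadherin in all 4 libraries.

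**Figure D2:**
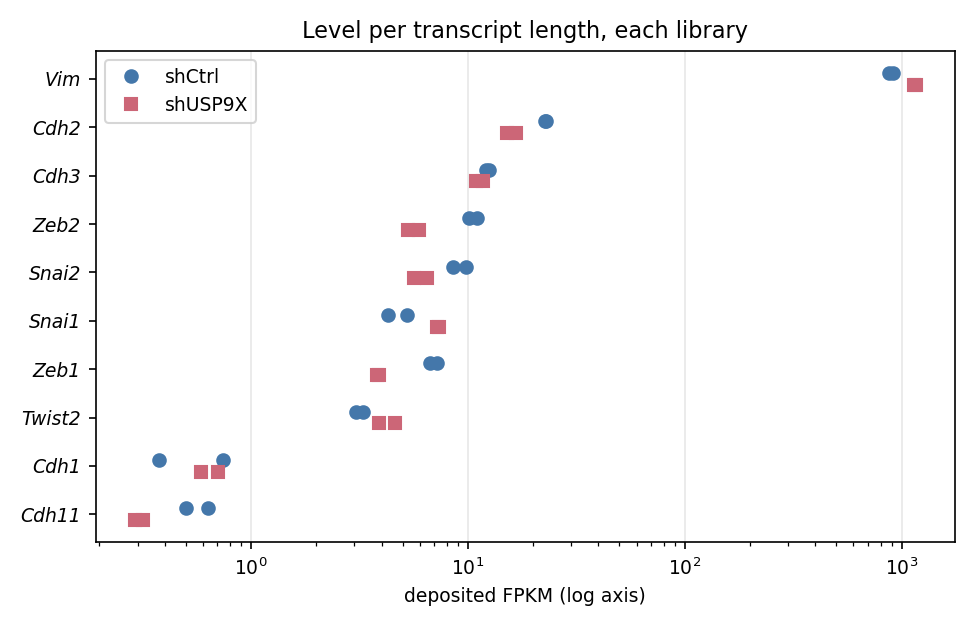
Deposited FPKM (horizontal log axis) of 9 EMT genes and Cdh3 in each shCtrl library (blue circles) and each shUSP9X library (red squares), ordered by the mean over all 4 libraries. Twist1, at 0 in every library, cannot be drawn on a log axis. Vim lies far to the right, Cdh1 and Cdh11 lie below 1 FPKM, and Snai1 and Snai2 change order between the groups in these uncorrected values.

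The fold changes of all genes followed the make-up of their transcripts. Across the genes tested, log2 fold change had a Spearman rho of 0.447 with GC content and of -0.331 with length (a description across genes, which are not independent replicates). With genes ranked by GC content and divided into 10 classes of like size, the median log2 fold change of class 1, with the least GC, was -0.88 and 82.2% of it was lower in shUSP9X. In class 10, the richest, it was 0.18 and 15.8% was lower. Zeb2 (40.6% GC) belonged to class 1 and Snai1 (59.8% GC) to class 10. Snai2 (42.6%) lay in class 2, whose median was -0.41, and Vim (53.9%) lay in class 8, whose median was 0.25. Zeb1 (46.1%) and Cdh11 (44.9%) shared class 3, with a median of -0.19, and Cdh2 (49.5%) lay in class 5, with a median of 0.06. Whether this trend arose in the cells or in the preparation of the libraries was not tested.

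**Figure D3:**
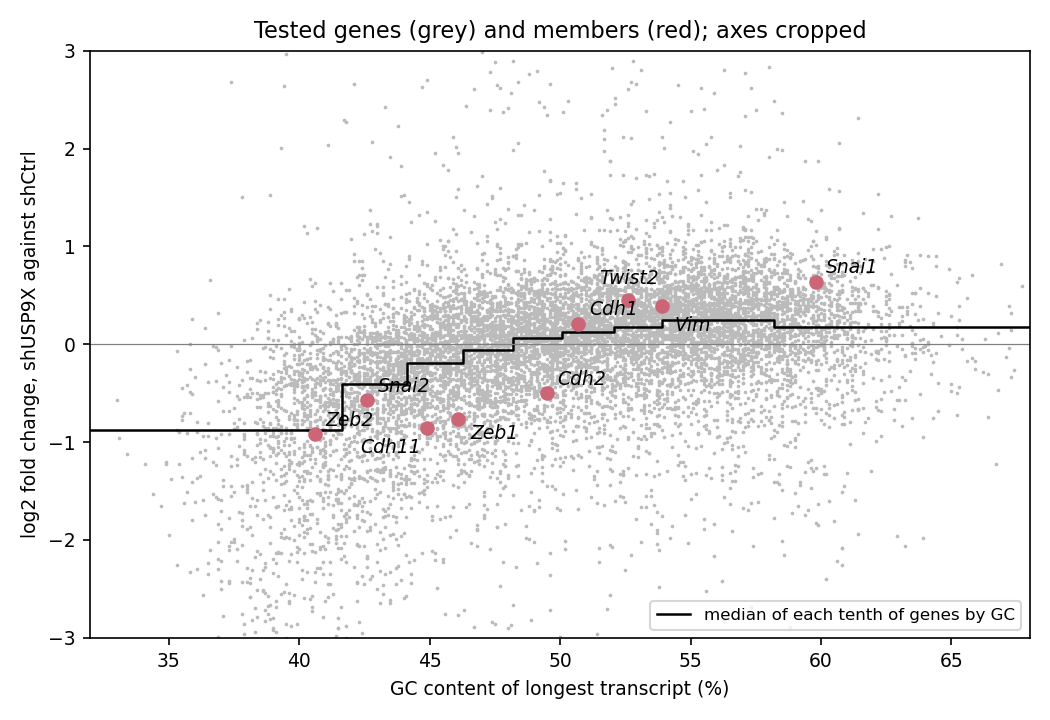
Log2 fold change of shUSP9X against shCtrl (vertical axis) by GC content of the longest transcript in percent (horizontal axis), with 11430 tested genes in grey, 9 EMT genes in red and the median of each of 10 GC classes as a black step line. The axes are cropped and leave out 220 genes. Zeb2 and Snai2 sit near the median of genes with like GC content, while Zeb1, Cdh11 and Cdh2 sit below it and Snai1 above it.

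The comparison was therefore repeated with an offset that takes out each library's smooth trend with GC content and length, after which 27.5% of all genes were lower and 35.8% higher. Of the EMT genes, 2 were then lower, Zeb1 and Cdh2, and 3 were higher, Snai1, Vim and Zeb2. The log2 fold change of Zeb1 was -0.42 (edgeR adjusted p = 2.8e-04) and that of Cdh2 was -0.46 (edgeR adjusted p = 1.3e-07). Snai1 came to 0.39 (edgeR adjusted p = 0.0265) and Vim to 0.16 (edgeR adjusted p = 5.0e-06), both nearer to 0 than before. Snai2 (-0.26, edgeR adjusted p = 0.0757) and Cdh11 (-0.42, edgeR adjusted p = 0.229) were no longer called.

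Zeb2 turned to 0.54 (SE 0.08, edgeR adjusted p = 1.0e-06) under that offset, and its value moved with the length assigned to it. The longest of its 29 annotated transcripts has 9124 bases, whereas the ratio of count to FPKM implied 5130 bases. With that implied length the log2 fold change was 0.23, with the median transcript of 1762 bases it was -0.46, and with GC content alone it was -0.05. The counts of Zeb2 were lower in shUSP9X in both libraries, but whether they were lower than those of transcripts of like composition depended on this choice. The 4 corrections gave Snai2 values of -0.27 to 0.01, none of them called. Cdh2 was called lower in 3 of them and was at -0.05 (edgeR adjusted p = 0.428) with its median transcript, which is poorer in GC (44.5%) than the longest one.

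**Figure D4:**
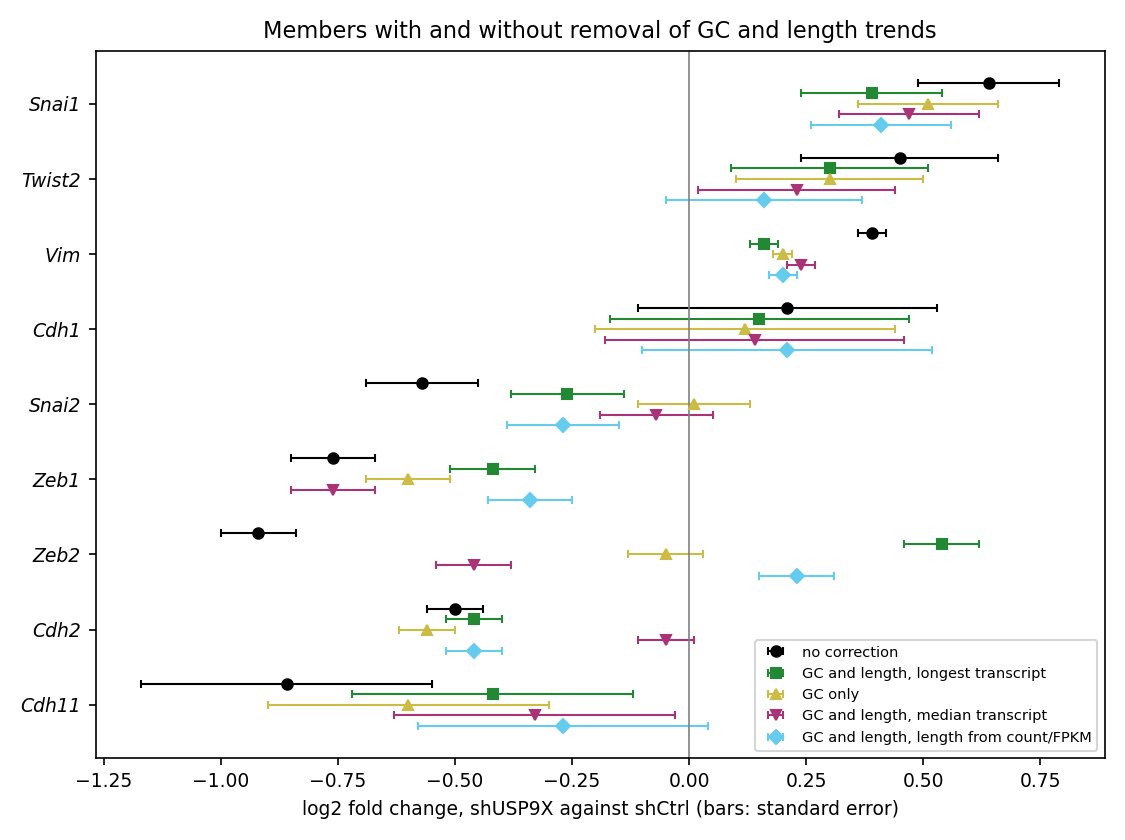
Log2 fold change with its standard error (horizontal axis) of 9 EMT genes, without correction (black circles) and with 4 corrections for transcript GC content and length (colored symbols). Snai1, Vim and Zeb1 stay on their side of 0 with every symbol, and Zeb2 lies on both sides, from -0.92 to 0.54.

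The genes with a profile over the 4 libraries most like that of Zeb2 were found by the Euclidean distance of log2 CPM centred on each gene's mean. Among the nearest were Pck2, mitochondrial phosphoenolpyruvate carboxykinase (distance 0.0345), and Col4a6, a basement membrane collagen (0.0351). Their log2 fold changes were -0.89 and -0.91. Unlike Zeb2, Pck2 (51% GC) and Col4a6 (53.6% GC) stayed lower with the offset, at -0.94 and -0.92.

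Classical cadherins need catenins to reach the actin cytoskeleton. Of 15 genes for catenins and adherens junction linkers 11 were tested, and 3 were lower, 2 were higher and 6 were not called, with a median log2 fold change of 0.03. Ctnnb1 (β-catenin) had a log2 fold change of 0.05 (SE 0.03, edgeR adjusted p = 0.209) and Ctnna1 (α-catenin) one of 0.04 (SE 0.04, edgeR adjusted p = 0.368), both from well counted genes. Afdn (afadin, which ties nectins to actin) fell by 0.28 on the log2 scale (edgeR adjusted p = 5.3e-07) and Ctnnal1 (α-catulin) fell by 0.26 (edgeR adjusted p = 1.2e-04). Jup (plakoglobin) was higher by 0.21 (edgeR adjusted p = 1.0e-04) and Nectin1, an immunoglobulin-like adhesion receptor, by 0.31 (edgeR adjusted p = 0.00755). Arvcf, a relative of p120-catenin, had the largest value of the list, -0.52 (SE 0.24, edgeR adjusted p = 0.0610), and was not called. With the offset, Afdn (0.01) and Jup (0.08) lost their call, Ctnnal1 came to -0.15, and Ctnnd1 (p120-catenin, which keeps cadherins at the surface) went from -0.09 (edgeR adjusted p = 0.0295) to 0.16 (edgeR adjusted p = 1.2e-04).

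Of 20 other cadherin genes, 12 had no counts in any library and 3 were tested, of which 0 were called by edgeR or DESeq2 and 1 was lower at an unadjusted p under 0.05. They were Cdh3 (-0.09, edgeR adjusted p = 0.231), Cdh22 (-0.48, edgeR adjusted p = 0.0614) and Cdh24 (-0.47, edgeR adjusted p = 0.321). Cdh3 had counts of 947 and 834 in shCtrl and of 1032 and 814 in shUSP9X. With the offset, Cdh3 was called lower at -0.20 (edgeR adjusted p = 0.0104).

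EMT factors act with partners and co-factors. Of 18 tested, 10 were lower, 3 were higher and 5 were not called, with a median of -0.24 beside -0.00 for all genes. With the offset, 6 were lower and 4 were higher, with a median of -0.07 beside 0.04 for all genes. The E proteins, with which TWIST proteins pair, differed from one another. Tcf4 fell by 1.24 on the log2 scale (SE 0.12, edgeR adjusted p = 5.2e-10; counts 547, 444, 221 and 239) and Tcf12 fell by 0.48 (SE 0.05, edgeR adjusted p = 1.3e-09), while Tcf3 was at 0.11 (SE 0.07, edgeR adjusted p = 0.169). With the offset neither Tcf4 (0.07) nor Tcf12 (0.09) was called. As for Zeb2, the longest transcript used there exceeds the length implied by count and FPKM. It has 8577 against 3259 bases for Tcf4 and 6299 against 3840 bases for Tcf12. Whether their values move with the length was not examined.

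Id1, Id2 and Id3, whose products capture E proteins and keep them from DNA, were lower, and Id4, with counts of 0, 2, 0 and 0, was not tested. Id1 had counts of 2679 and 2354 in shCtrl and of 2104 and 1729 in shUSP9X, and its log2 fold change was -0.54 (SE 0.05, edgeR adjusted p = 2.3e-10). Those of Id2 and Id3 were -0.53 (SE 0.07, edgeR adjusted p = 3.1e-07) and -0.68 (SE 0.07, edgeR adjusted p = 3.2e-09). Id1, Id2 and Id3 were lower with the offset too, at -0.88, -0.51 and -1.02.

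Among the repressor complexes that SNAIL and ZEB proteins recruit, Suz12 of Polycomb complex PRC2 fell by 1.62 on the log2 scale (SE 0.05, edgeR adjusted p = 3.0e-20), with counts of 3388 and 3094 in shCtrl and of 1263 and 1073 in shUSP9X. With the offset it was at -0.94. Ctbp1, a co-repressor of ZEB proteins, was higher by 0.52 (SE 0.05, edgeR adjusted p = 1.3e-10). Ajuba and Limd1, LIM proteins that bind the SNAG domain of Snail, were higher by 0.58 (SE 0.05, edgeR adjusted p = 8.0e-11) and by 0.22 (SE 0.06, edgeR adjusted p = 9.0e-04), the latter at 0.14 with the offset. Their close relatives did not share this call, with Ctbp2 at -0.06 (edgeR adjusted p = 0.497) and Wtip, of the Ajuba family, at -0.28 (edgeR adjusted p = 0.148). With the offset Ctbp2 was called lower, at -0.22 (edgeR adjusted p = 0.00707).

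Of 7 tested genes for other EMT-inducing factors, 2 were lower, 3 were higher and 2 were not called. Hmga2, a chromatin protein that acts upstream of Snai1 and Twist1 in the response to TGF-β, rose most, by 0.95 (SE 0.04, edgeR adjusted p = 3.9e-17), with counts of 5661 and 4681 in shCtrl and of 11785 and 10185 in shUSP9X. The forkhead gene Foxq1 was higher as well (0.39, edgeR adjusted p = 5.1e-05). The zinc finger gene Zfp281 fell by 1.10 on the log2 scale (edgeR adjusted p = 5.8e-13) and the SRY-box gene Sox4 fell by 0.53 (edgeR adjusted p = 4.4e-08). With the offset Hmga2, Foxq1, Zfp281 and Sox4 kept their direction and call, and Zfp281 came to -0.54. Prrx1, a homeobox factor of mesenchyme, had counts of 11, 9, 5 and 0 and was not tested.

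Factors that oppose EMT were mostly scarce. Esrp1, the epithelial splicing regulator, had no counts, Grhl2 had 9, 6, 1 and 6 and Ovol2 had 0, 1, 0 and 1. Of 6 tested, 1 was lower, 3 were higher and 2 were not called. Klf4 fell by 0.47 on the log2 scale (SE 0.04, edgeR adjusted p = 1.7e-10), whereas Klf5 was higher by 0.35 (SE 0.07, edgeR adjusted p = 1.1e-04) and Esrp2 by 0.29 (SE 0.10, edgeR adjusted p = 0.0130). The call of Esrp2 was lost with the offset (0.13).

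Keratins and junction genes went both ways. Of 18 tested, 6 were lower, 7 were higher and 5 were not called, with a median of 0.09. The keratin pair of simple epithelia rose. Krt8 had counts of 5441 and 5119 in shCtrl and of 11905 and 10141 in shUSP9X (log2 fold change 0.92, SE 0.04, edgeR adjusted p = 5.5e-18). Krt18, its partner, had counts of 6776 and 5882 in shCtrl and of 11868 and 9980 in shUSP9X (log2 fold change 0.64, SE 0.04, edgeR adjusted p = 1.3e-14). Both kept their call with the offset, at 0.64 and 0.33. Krt19 was called at 0.12 (edgeR adjusted p = 0.00274) but turned to -0.17 (edgeR adjusted p = 2.3e-05) with the offset. Cldn3, a tight junction claudin, was higher by 1.31 (SE 0.22, edgeR adjusted p = 1.1e-05) from counts of 53, 43, 162 and 103.

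Several junction genes were lower instead. Tjp1 (ZO-1, the scaffold of tight junctions) fell by 0.58 on the log2 scale (edgeR adjusted p = 4.5e-13) and was at -0.19 with the offset. The desmosome genes Pkp1 (plakophilin) and Dsg2 (desmoglein) fell by 0.84 (edgeR adjusted p = 1.6e-10) and by 0.71 (edgeR adjusted p = 4.3e-07). Other desmosome genes did not share this. Dsp went from -0.20 (edgeR adjusted p = 0.00171) to 0.51 with the offset (edgeR adjusted p = 2.7e-09). Pkp3 was higher by 1.59 (edgeR adjusted p = 0.00925) from counts of 5, 9, 20 and 27, and Pkp2 (0.09) and Dsc2 (-0.32) were not called. Typical genes of epithelial tissue were near absent in all libraries, Epcam with counts of 4, 6, 1 and 6 and Ocln with 0, 0, 3 and 0. Krt7 had counts of 0, 0, 2 and 3. Vimentin thus rose in the same libraries as the keratins Krt8 and Krt18.

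Mesenchymal and matrix genes were mostly lower. Of 22 tested, 16 were lower, 3 were higher and 3 were not called, with a median of -0.57 beside -0.00 for all genes. Fn1 encodes fibronectin, a matrix protein that rises in EMT, and had counts of 26826 and 25023 in shCtrl and of 10291 and 9253 in shUSP9X. The groups lay far apart, at 1565 ± 25.2 CPM and 534.9 ± 20.2 CPM (SD, n = 2 each), and the log2 fold change was -1.55 (SE 0.03, edgeR adjusted p = 2.8e-23). The collagen genes Col5a2 (-2.13, edgeR adjusted p = 6.8e-11) and Col1a1 (-1.72, edgeR adjusted p = 4.5e-16) and the neural adhesion gene Ncam1 (-1.67, edgeR adjusted p = 4.0e-19) fell further still. With the offset 15 were lower and 4 were higher, the median was -0.34, and Fn1, Col5a2, Col1a1 and Ncam1 were at -1.35, -1.99, -1.75 and -1.54.

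Among the 3 genes that rose with vimentin were those of cell surface receptors. The receptor tyrosine kinase gene Axl was higher by 0.53 (SE 0.03, edgeR adjusted p = 5.3e-14) and the hyaluronan receptor gene Cd44 by 0.43 (SE 0.04, edgeR adjusted p = 6.8e-11), the latter at 0.90 with the offset. The smooth muscle genes of EMT were near absent, Acta2 with counts of 8, 21, 15 and 12 (-0.25, edgeR adjusted p = 0.684) and Tagln with 8, 19, 8 and 0.

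SNAIL and TWIST proteins are short-lived, and USP9X belongs to the enzyme class that spares proteins from degradation. RNA cannot show protein levels. Among 19 genes for enzymes known to act on the turnover of these proteins, 8 were lower, 6 were higher and 5 were not called, with a median of -0.09. Fbxo11, a ubiquitin ligase subunit for Snail, fell by 1.11 on the log2 scale (edgeR adjusted p = 1.0e-14), Gsk3b, the kinase that marks Snail for decay, fell by 0.64 (edgeR adjusted p = 1.5e-10), and Fbxo45 fell by 0.62 (edgeR adjusted p = 4.6e-07). Other ligase genes went up, with Fbxl14 higher by 0.67 (edgeR adjusted p = 1.5e-08) and Trim21 by 0.75 (edgeR adjusted p = 4.4e-05). The deubiquitinase gene Usp10 was higher by 0.92 (edgeR adjusted p = 2.1e-14). With the offset 4 were lower and 9 were higher, Fbxo11 was at -0.51 and Gsk3b (0.06) was not called.

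**Figure D5:**
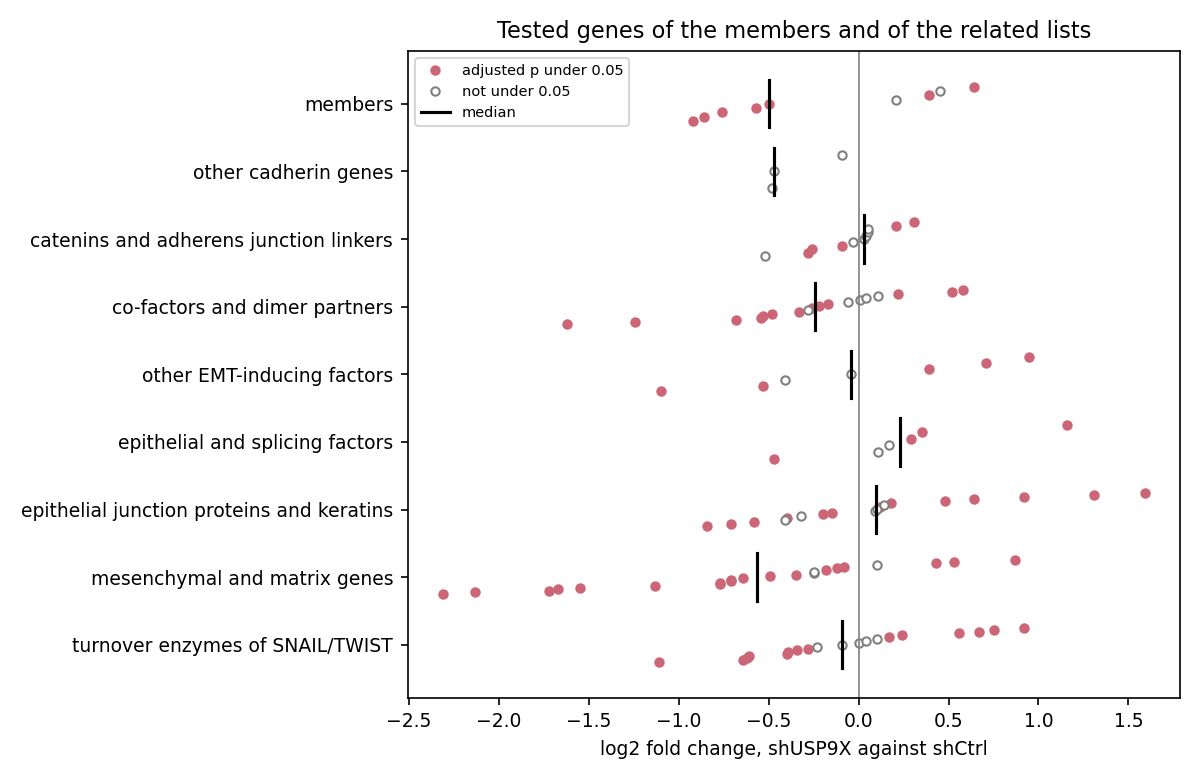
Log2 fold change of shUSP9X against shCtrl (horizontal axis) for tested genes of the 10 EMT genes (members) and of 8 related lists, with genes at an adjusted p under 0.05 in red, other genes as open circles and list medians as black bars. Mesenchymal and matrix genes lie mostly left of 0 and all 3 tested genes of the other cadherins do, while the remaining lists spread to both sides.

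The cell type label was checked against marker genes. Of 12 markers of ovarian surface epithelium and mesothelium, 9 had a mean of at least 1 FPKM, and their summed level was 1478 and 1503 FPKM in shCtrl and 1714 and 1684 FPKM in shUSP9X, led by Krt19. Wt1, a transcription factor of this lineage, was at 170.291 and 180.742 FPKM in shCtrl and at 121.57 and 120.032 FPKM in shUSP9X, and Krt7, Lrrn4 and Nkain4 stayed below 1 FPKM. Most markers of the labelled lineage were thus present in all 4 libraries.

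Markers of other ovarian cells were mostly low. Only the fibroblast markers Dcn and Pdgfra and the endothelial marker Tek reached a mean of 1 FPKM, with Dcn far the highest. Pdgfra stood at 5.968 and 3.688 FPKM in shCtrl and at 0.437 and 0.696 FPKM in shUSP9X. Its log2 fold change was -2.87 (edgeR adjusted p = 6.6e-13), and -2.61 with the offset. Of 5 oviduct epithelium markers, Cdh1 among them, none reached a mean of 1 FPKM, and their sums were 2.348, 1.633, 0.924 and 1.156 FPKM. The 7 fibroblast markers summed to 103.2 and 100.1 FPKM in shCtrl and to 70.38 and 69.08 FPKM in shUSP9X, nearly all of it Dcn, with Pdgfrb, Lum and Thy1 at 0 in all 4 libraries. This sum was lower in shUSP9X, as the ZEB genes and Cdh2 were, and its part in their difference was not tested. Of 6 endothelial markers, Cdh5, Kdr and Emcn were at 0, and the sum, led by Tek, was 2.432, 2.85, 1.622 and 1.676 FPKM. The sum of 10 leukocyte markers was 0.119 and 0.044 FPKM in shCtrl and 0.928 and 1.004 FPKM in shUSP9X, led by Ptprc, with C1qa, C1qb, Cd3e and Cpa3 at 0. The part of this higher sum in the results was not tested. The 5 granulosa cell markers summed to at most 0.511 FPKM, led by Inha, with Foxl2, Fshr and Cyp19a1 at 0.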

How the data were processed

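Total RNA of 4 ID8 libraries (2 shCtrl, 2 shUSP9X) was enriched for poly(A) RNA and sequenced. For each gene the authors deposited estimated counts by library, not normalized, and FPKM values, scaled for transcript length and depth. The submitters' processing notes name fastp 0.18.0, Bowtie2 2.2.8, HISAT2, StringTie 1.3.1 and RSEM, without their roles, and the study's methods name GRCm38. Between 6.395 and 6.69% of counts were not whole and were rounded, since the test had been planned for whole counts.

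Counts passing filterByExpr were scaled by TMM and tested (two-sided) with edgeR 4.0.16 in R 4.3.3, with no covariate. The estimated biological coefficient of variation was 0.0352, and a permutation of 2 against 2 libraries cannot reach a p of 0.05. A count of 3 was the floor of detection. Intervals and floors cover the errors of counting and of these libraries only. Coordinates, GC content and length came from GENCODE M21 (99.8% of tested genes). The offset was a loess fit (span 0.3) on GC content and length of the longest transcript. The procedure was tested on simulated data.

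The members and lists were chosen with earlier results of these data known. Genes named were the 10 members, Usp9x, fixed genes of each list, and in each list up to 3 lowest and 3 highest among genes at an adjusted p under 0.05, separate groups and a mean FPKM of at least 1. Arvcf, Id4, Ctbp2, Wtip, Cdh22, Cdh24, Dsp, Dsc2, Pkp2, Pkp3, Wt1 and the other cell type markers were named besides, after their values were seen. The symbol Tbxt was not found in the table. Some genes within this rule are not reported here. Alternatives were DESeq2 1.42.0, other scalings and count filters, limma 3.58.1 on log2(FPKM + 1) or log2(FPKM + 0.1), a replicate block, offsets, and each library left out.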

Additional observations from a re-analysis of the deposited data

How the results depend on the processing

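Of 380 counts recomputed, 340 were within 1.5 times the value reported. Under every GC content or length offset, 2 instead of 5 EMT genes were lower. The last 3 (GC content only, median transcript, and length implied by count and FPKM) were chosen after seeing the data. Among the EMT genes, the values that changed sign were those of Zeb2, to 0.54 (offset), 0.53 (replicate block with offset) and 0.23 (implied length), of Snai2, to 0.01 (GC content only), and of Cdh1, between -0.19 (without shCtrl replicate 2) and 0.81 when 1 library was left out. The cause was not tested.

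The catenin list had 1 higher gene with each of the limma fits, 0 with GC content only and 4 with the implied length (2 reported), and 5 lower with the median transcript and 1 with the implied length (3 reported). Lower co-factors numbered 6 with the offset (10 reported), and higher keratin and junction genes 4 with limma after the FPKM filter (7 reported). For epithelial factors, 1 was higher with DESeq2 and with each limma fit (3 reported) and 2 were lower with the offset, with or without the block (1 reported). Higher mesenchymal genes numbered 5 without a filter, in edgeR and in limma (3 reported). Of the other cadherins, where 0 were lower as reported, 1 was lower with library size only, with no count filter, with at least 10 counts in every library and with the offset, with or without the block, and 2 with GC content only and with the implied length. Lower turnover genes numbered 4 with the offset and 5 with the block and offset or any added offset (8 reported).

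Without 1 library, the lower EMT genes numbered 4 to 5, higher catenin genes 1 (without shUSP9X replicate 2) to 4 (without shCtrl replicate 2), higher epithelial factors 1 (without shCtrl replicate 1) to 4, and lower other cadherins 0 to 1 (without shCtrl replicate 1 or shUSP9X replicate 1). The lone library of a group was then assumed to vary like the other group. With the replicate block, 5 EMT genes were lower and 2 higher. The numbers are not stated to pair the libraries, and the differences of replicate 1 and 2 had a correlation of -0.0453 between the groups. Over the settings, the median of all genes lay between -0.03 and 0.05. Depth limits Cdh1, Cdh11 and Twist2, and Twist1 had no counts.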
